A study of Mus musculus with 21 samples.

Results

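The 8 genes described here encode the enzymes and the mitochondrial carrier that make and use arginine: Cps1, Otc, Ass1, Asl, Arg1, Arg2, Nos2 and Slc25a15. They were taken by gene symbol from the 55487 gene identifiers of the deposited table, and all 8 were found. Of these, 6 had enough reads to be tested. Cps1 and Otc, the enzymes of the first steps of the cycle, had at most 16 and 2 reads per library in these tumours. Nos2 was 6.13-fold higher in WT mice given the antibody combination than in WT mice given isotype, and 1.72-fold higher in the same comparison in B-cell-depleted mice, where the difference did not pass the test. Arg1 rose in both, although its call in B-cell-depleted mice was lost without any 1 of 16 of the 21 libraries. Ass1 lay lower in B-cell-depleted than in WT mice, which did not pass the test under isotype and sat at its threshold under combination.

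The tissue was hepatocellular carcinoma grown from Hepa1-6 cells, a mouse hepatoma line, in C57BL/6 mice, and RNA was taken from frozen pieces. The groups were WT mice given isotype antibody (5 libraries, called WT isotype), WT mice given anti-PD1 plus anti-CTLA4 (5, WT combination), mice with B-cell depletion given isotype (6, B-depleted isotype) and mice with B-cell depletion given anti-PD1 plus anti-CTLA4 (5, B-depleted combination). Anti-PD1 and anti-CTLA4 block inhibitory receptors of T cells. The method of depletion, the age of the mice, the doses and the times were not given in the sources used here, nor whether each library came from a separate animal, so p-values measure the spread between these libraries.

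In liver, the urea cycle turns ammonia into urea. Cps1 and Otc act inside mitochondria, where Slc25a15 brings ornithine in and takes citrulline out, and Ass1 and Asl then make arginine from citrulline and aspartate in the cytosol. Arginase, encoded by Arg1 and Arg2, splits arginine into ornithine and urea, while the inducible nitric oxide synthase Nos2 turns arginine into nitric oxide and citrulline. Outside the liver, macrophages and neutrophils are well known users of arginine: interferon-gamma with microbial or NF-kB signals induces Nos2 in mouse macrophages, interleukin-4 and interleukin-13 induce Arg1, and Ass1 and Asl can turn the citrulline left by nitric oxide synthesis back into arginine.

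Library totals ran from 9.52 to 19.17 M counts, so that 3 counts, used here as the floor of detection, stand for 0.157 to 0.315 CPM (counts scaled to a library total of 1 M). Levels below are CPM of the library total, and RPKM where genes are compared, which is CPM per kilobase of exon. Changes are log2 fold changes from edgeR's quasi-likelihood test on 19061 genes, called where the p, adjusted by Benjamini-Hochberg across these genes, was under 0.05. Hepatocyte markers summed to 1012 to 2854 CPM in WT isotype and 123 to 998 CPM in WT combination, where 7 of 8 tested markers fell. Whether this RNA came from the hepatoma cells or from normal liver cells was not tested. All 8 macrophage markers and all 6 T cell markers rose in that comparison. B-depleted combination 5 stood apart: it held 22 reads of the B-cell gene Ms4a1, against 0 to 4 in the other B-depleted libraries, which at 1.57 CPM lies above all 5 WT isotype libraries and WT combination 1 and 3. It also had the highest neutrophil marker sum of all 21. Under isotype the sum of 6 B-cell markers was 5.26 to 14.8 CPM in B-depleted and 7.53 to 16.6 CPM in WT libraries. These ranges overlap, and none of the 6 was called there, while all 6 were lower in B-depleted mice under combination. Ms4a1, which is among the 6, had 19, 7, 6, 6 and 2 reads in WT isotype and 0 to 2 in B-depleted isotype. Only 2 of the 6 markers had reads in every library. In bulk tumour RNA, fewer cells of a type and less RNA per cell cannot be told apart.

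All 8 are protein-coding genes of GRCm38. Cps1 (ENSMUSG00000025991.8) lies at chr1:67123026-67231259, Otc (ENSMUSG00000031173.13) at chrX:10252305-10321024, Ass1 (ENSMUSG00000076441.9) at chr2:31470207-31520672, Arg2 (ENSMUSG00000021125.6) at chr12:79130777-79156301 and Nos2 (ENSMUSG00000020826.9) at chr11:78920787-78960254, all on the plus strand. Slc25a15 (ENSMUSG00000031482.9) at chr8:22375551-22398597, Asl (ENSMUSG00000025533.15) at chr5:130011258-130029247 and Arg1 (ENSMUSG00000019987.9) at chr10:24915221-24927484 lie on the minus strand. Exons of Arg2 overlap exons of Vti1b by 285 bases and of Gm48780 by 116 bases on the other strand, so reads there cannot be assigned without strand, and whether counting used strand is not given in the sources used here. The other 7 overlap no exon of another gene.

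RefSeq promoter sequences (GRCm38.p6) were at hand for 3 of the 8 genes. Those of Ass1, read in every library, and Otc, at 0 in 19 of 21, are shown because 1 enzyme of the cycle was read throughout these tumours and the other almost nowhere. Each line gives the 250 bases before the RefSeq start site on the plus strand, chr2:31470020-31470269 for Ass1 and chrX:10252055-10252304 for Otc. The capitals mark an E-box.
Ass1: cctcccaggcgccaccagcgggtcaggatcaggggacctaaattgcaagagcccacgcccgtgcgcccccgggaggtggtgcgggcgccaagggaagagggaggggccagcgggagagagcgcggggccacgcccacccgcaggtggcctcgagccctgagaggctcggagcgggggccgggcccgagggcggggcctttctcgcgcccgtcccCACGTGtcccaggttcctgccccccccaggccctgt
Otc: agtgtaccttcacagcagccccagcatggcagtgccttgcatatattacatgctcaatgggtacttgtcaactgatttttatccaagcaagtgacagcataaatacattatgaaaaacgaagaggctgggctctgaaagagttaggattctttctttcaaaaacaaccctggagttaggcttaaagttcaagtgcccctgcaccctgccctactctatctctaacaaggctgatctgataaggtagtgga

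The Ass1 window, with 50 further bases after the start, holds 27 CpG pairs, and 84.5% of 32851 promoters hold fewer. The Otc window holds 1, and 5.43% hold fewer. The median is 7. On both strands 6 motifs were searched: the TATA box TATAAA (in 13.6% of all promoters), the STAT site TTCNNNGAA (8.3%), the interferon element GAAANNGAA (8.56%), the C/EBP site TTGCNNAA (10.8%), the HNF4 site CAAAGTCCA (0.475%) and the E-box CACGTG (7.15%). Ass1 had the E-box, whose first base is at -36 from the RefSeq start site, and Otc had none of the 6. By the gene position given above, Ass1 starts at chr2:31470207, which lies upstream of that E-box. Slc25a15 has a pair of RefSeq start sites: the window of one holds an interferon element at -76 on the other strand and the window of the other an E-box at -77. These are matches of letters only.

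**Figure D1:**
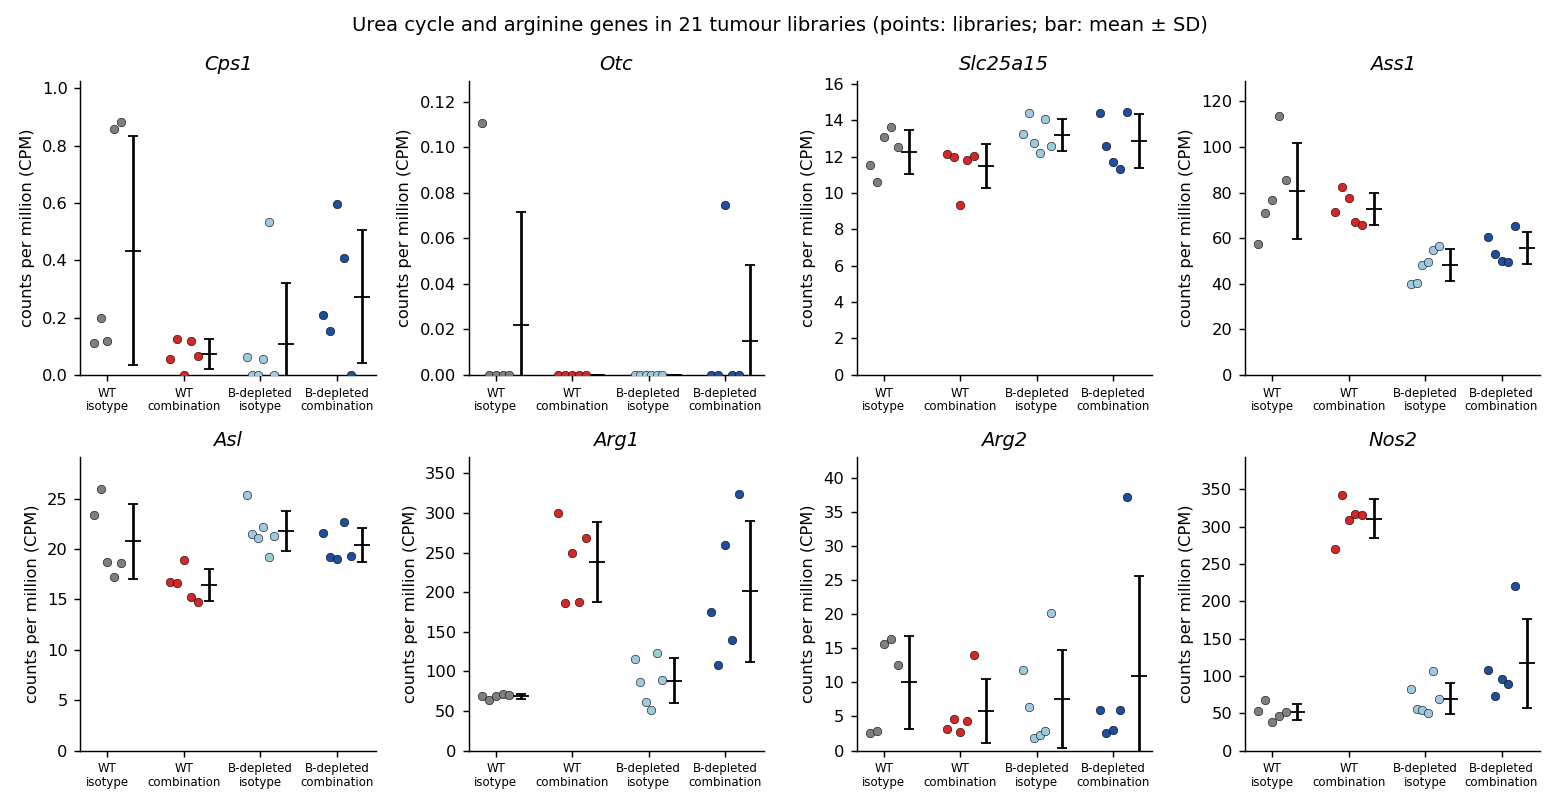
Level of the 8 genes in CPM (vertical axes, each from 0) in every library of the 4 groups; bars give the mean and SD, cut at 0 where the SD is larger than the mean. Nos2 lies at 269.6 CPM or more in the 5 WT combination libraries and at 220.9 CPM or less in the other 16, while Cps1 stays under 1 CPM throughout.

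Cps1, which fixes ammonia in the rate-limiting step of the cycle, had 2, 3, 2, 15 and 16 reads in WT isotype and 1, 2, 0, 2 and 1 in WT combination. It had 0 to 9 reads in B-depleted isotype and 2, 2, 8, 5 and 0 in B-depleted combination. Every library but 5 had at least 1 read, and the level stayed under 1 CPM in all 21. The filter on low counts removed it. Without the filter its log2 change between WT combination and WT isotype was -2.45 ± 0.94 (SE), with an adjusted p of 0.0645, and no other comparison came closer to the threshold.

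Otc, which joins ornithine and carbamoyl phosphate into citrulline, had 2 reads in WT isotype 1, 1 read in B-depleted combination 3 and 0 in the other 19 libraries. A count of 0 allows at most 0.157 to 0.315 CPM, depending on the library, which covers counting error only. No fold is given, since every group is under the floor.

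Slc25a15, the mitochondrial ornithine carrier, was read at a low and even level. WT isotype libraries had 11.5, 10.6, 13.1, 13.6 and 12.5 CPM and WT combination libraries 12.1, 12, 9.31, 11.8 and 12.1 CPM. B-depleted isotype ran from 12.2 to 14.4 CPM with a median of 13.0, and B-depleted combination had 14.4, 12.6, 11.7, 11.3 and 14.4 CPM. The groups overlapped, except that every WT combination library lay below every B-depleted isotype library (12.1 against 12.2 CPM at the nearest), a pair of groups that differ in both antibody and depletion. How many of all genes are apart for that pair was not counted, so the separation has no share to be read against. Its log2 change between WT combination and WT isotype was -0.08 ± 0.10 (95% interval -0.28 to 0.12, adjusted p = 0.514), and in the B-depleted mice it was -0.02 ± 0.10 (-0.21 to 0.17, adjusted p = 0.954). These intervals leave out a change of 1.5-fold in either direction.

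Ass1, the argininosuccinate synthetase, lay lower in B-depleted than in WT mice under both antibodies. WT isotype libraries had 57.3, 70.8, 76.8, 113.6 and 85.4 CPM (80.8 ± 21, SD, n = 5), and B-depleted isotype libraries ran from 39.9 to 56.3 CPM with a median of 48.7 (48.1 ± 7.02, n = 6). WT combination libraries had 71.4, 82.3, 77.7, 67.1 and 65.7 CPM (72.8 ± 7.08, n = 5), and B-depleted combination libraries had 60.7, 53.1, 50, 49.6 and 65.5 CPM (55.8 ± 7.02, n = 5). Under both antibodies every B-depleted library lay below every WT library, although by a narrow gap: 56.3 against 57.3 CPM under isotype and 65.5 against 65.7 CPM under combination. Groups were apart in this way for 0.462% of all tested genes under isotype and for 10.5% under combination.

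Under isotype the log2 change of Ass1 was -0.76 ± 0.14 (SE, 95% interval -1.04 to -0.48), a 1.70-fold lower level in B-depleted mice. It ranked 2 of 19061 genes by p (unadjusted p = 2.81e-05) but did not pass after adjustment (adjusted p = 0.268, edgeR). In that comparison edgeR called 0 genes (0%), with 563 at an unadjusted p under 0.05, of which Ass1 was the 1 member, and DESeq2 called 5, Ass1 among them (adjusted p = 0.00219). Ass1 was also called without WT isotype 1, which had the lowest level of its group (adjusted p = 0.0341). It was called in 4 of 29 alternatives in all. Under combination Ass1 fell by 0.40 ± 0.15 on the log2 scale (1.32-fold, adjusted p = 0.0494), beside 29.1% of all genes called in that comparison. That value sits at the threshold: with 1 library left out the call held in 3 of 21 cases, without WT isotype 1, WT isotype 4 or B-depleted combination 5, and the highest adjusted p was 0.117.

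Neither comparison of combination with isotype passed the test for Ass1. The log2 change was -0.13 ± 0.15 in WT mice (95% interval -0.42 to 0.16, adjusted p = 0.477) and 0.23 ± 0.14 in B-depleted mice (-0.05 to 0.51, adjusted p = 0.463). The 2 responses differed by 0.36 ± 0.21 (95% interval -0.04 to 0.77, adjusted p = 0.262).

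Asl, the lyase that releases arginine, was lower by length than Ass1 in every library. WT isotype libraries had 23.4, 25.9, 18.8, 17.2 and 18.6 CPM and WT combination libraries 16.8, 16.6, 18.9, 15.2 and 14.7 CPM. B-depleted isotype libraries ran from 19.2 to 25.4 CPM with a median of 21.4, and B-depleted combination libraries had 21.6, 19.2, 19.1, 22.7 and 19.3 CPM. The WT groups overlapped, and WT isotype 1 and 2 were the highest of theirs. Asl fell by 0.31 ± 0.11 in WT combination against WT isotype (adjusted p = 0.0237). The call was lost without WT isotype 1 or 2, or WT combination 4 or 5 (adjusted p from 0.0528 to 0.0729), and without WT isotype 1 and 2 together the log2 change was -0.14 (adjusted p = 0.291).

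In B-depleted mice the log2 change of Asl was -0.08 ± 0.11 (adjusted p = 0.758), and the 2 responses differed by 0.24 ± 0.15 (adjusted p = 0.329). Under combination every B-depleted library lay above every WT library, 19.1 against 18.9 CPM at the nearest, with a log2 change of 0.29 ± 0.11 (adjusted p = 0.0544). That value passed the threshold without WT isotype 2, WT isotype 4, WT combination 3 or B-depleted isotype 1. Ass1 and Asl therefore stood in different ratios: Ass1 was 8.24 to 9.91 times Asl by RPKM in WT combination and 4.38 to 6.80 times in B-depleted combination. Under isotype the ratio was 4.91 to 13.2 in WT and 3.15 to 5.71 in B-depleted mice, where the ranges overlap.

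Arg1, the cytosolic arginase, rose with the combination in both kinds of mouse. WT isotype libraries had 68.4, 64.1, 68.5, 71.1 and 69.9 CPM, close to each other (68.4 ± 2.68, SD, n = 5). WT combination libraries had 299.9, 186.5, 249, 187.5 and 268 CPM (238 ± 50.2, n = 5). B-depleted isotype libraries ran from 51.6 to 123.8 CPM with a median of 88.1 (88.1 ± 28.5, n = 6), and B-depleted combination libraries had 175, 108, 260.1, 139 and 324 CPM (201 ± 89.0, n = 5). The WT groups did not overlap, and the B-depleted groups did, since B-depleted combination 2 lay below B-depleted isotype 1 and 5.

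The log2 change of Arg1 was 1.82 ± 0.27 in WT mice (3.53-fold, adjusted p = 9.3e-05) and 1.22 ± 0.25 in B-depleted mice (2.33-fold, adjusted p = 0.0407). In WT mice 50% of all genes were called, 3 of the 6 tested members among them (Arg1 and Nos2 higher, Asl lower), and the WT groups of 29.3% of genes did not overlap, against 2 of the 6 members. In B-depleted mice 0.341% of genes were called and Arg1 was the 1 member called, and 2.01% of genes, with no member, had groups apart. The B-depleted call was fragile. It held without WT combination 1, B-depleted isotype 3, B-depleted isotype 5, B-depleted combination 2 or B-depleted combination 4 and was lost without any of the other 16 libraries, and the lowest value was 0.95 (adjusted p = 0.138) without B-depleted combination 5.

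Neither comparison of B-depleted with WT mice passed the test for Arg1. The log2 difference from WT was 0.35 ± 0.25 under isotype (adjusted p = 1.0) and -0.25 ± 0.26 under combination (95% interval -0.76 to 0.26, adjusted p = 0.479). The 2 responses differed by -0.60 ± 0.36 (95% interval -1.31 to 0.12, adjusted p = 0.296).

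Arg2, the mitochondrial arginase, varied widely within each group. WT isotype libraries had 2.59, 2.86, 15.6, 16.3 and 12.6 CPM and WT combination libraries 3.15, 4.57, 2.77, 4.33 and 14.0 CPM. B-depleted isotype libraries had a lowest value of 1.83, a median of 4.66 and a highest of 20.2 CPM, and B-depleted combination libraries had 5.88, 2.54, 3.05, 5.93 and 37.1 CPM. No comparison was called. The log2 change was -0.78 ± 0.80 in WT mice (95% interval -2.35 to 0.78, adjusted p = 0.426) and 0.57 ± 0.76 in B-depleted mice (-0.91 to 2.05, adjusted p = 0.755), intervals that hold changes of more than 2-fold. Without B-depleted combination 5 the second became -0.83.

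The libraries with much Arg2 were those with much neutrophil marker RNA. The summed level of 8 neutrophil markers was 825 CPM in B-depleted combination 5 and 437 CPM in B-depleted isotype 6, which had the highest Arg2 levels. In WT isotype the sums were 30.9, 32.3, 131, 158 and 101 CPM, low in libraries 1 and 2 and high in 3, 4 and 5, as was Arg2. In WT combination they were 70.3, 99.5, 64.0, 98.4 and 305 CPM, and library 5 was again the highest in both. In B-depleted isotype the sums ran from 24.9 to 437 CPM and in B-depleted combination from 43.5 to 825 CPM. Of the 8 markers, 7 had reads in every library and Camp was at 0 in 8. The summed level of 4 hepatoma markers was also low in WT isotype 1 and 2, at 158 and 189 CPM. It was 813 to 1506 CPM in WT isotype 3, 4 and 5. In B-depleted isotype it was 833, 757, 367, 316, 439 and 988 CPM. Arg2 in the same libraries was 11.8, 6.41, 1.83, 2.34, 2.91 and 20.2 CPM. The hepatoma sum was 90.0 to 271 CPM in WT combination, and 97.5 CPM in library 5, which had the most Arg2. In B-depleted combination 5 the hepatoma sum was 402 CPM, the lowest of its group. The part of neutrophils or tumour cells in the Arg2 level was not tested. By length Arg1 made up 73.6% to 98.4% of the arginase RNA of a library (sum of both genes' RPKM).

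**Figure D2:**
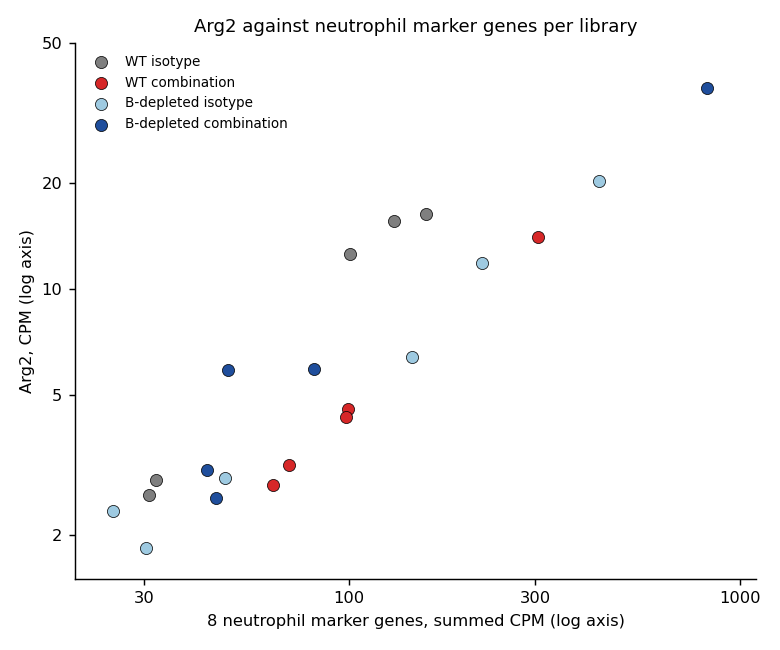
Arg2 (CPM, vertical log axis) against the summed CPM of 8 neutrophil marker genes (horizontal log axis), 1 point per library, coloured by group. B-depleted combination 5 lies at the upper right (37.1 CPM of Arg2, 825 CPM of markers), and each group is spread along the same direction.

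Nos2 showed the largest called change of the 6 tested genes. WT isotype libraries had 53.3, 68.0, 38.5, 45.8 and 52.1 CPM (51.5 ± 10.9, SD, n = 5) and WT combination libraries 269.6, 343, 309, 316 and 316 CPM (311 ± 26.3, n = 5). B-depleted isotype libraries ran from 50.4 to 106 CPM with a median of 62.6 (69.7 ± 21.3, n = 6). B-depleted combination libraries had 108, 72.6, 95.4, 88.7 and 220.9 CPM (117 ± 59.4, n = 5). The WT combination libraries lay above all others, and 4 of the 5 B-depleted combination libraries lay within or just above the range of the B-depleted isotype group.

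In WT mice Nos2 rose by 2.62 ± 0.27 on the log2 scale (6.13-fold, 95% interval 2.08 to 3.15, adjusted p = 1.3e-05), which ranked 8 of 19061 genes by p. The call held in all 29 alternatives, with values from 1.95 to 2.79. In B-depleted mice the change was 0.78 ± 0.25 (1.72-fold, 95% interval 0.30 to 1.26) and did not pass the test (adjusted p = 0.162), and it was 0.39 (adjusted p = 0.556) without B-depleted combination 5. Under combination Nos2 was 2.66-fold lower in B-depleted than in WT mice (log2 change -1.41 ± 0.26, adjusted p = 0.00512), and without B-depleted combination 5 the value was -1.80. Ass1 and Nos2 were the 2 of 6 members called in that comparison, near the 29.1% called over all genes. With Asl they were the 3 of 6 whose groups did not overlap, beside 10.5% of all genes. Under isotype the difference was 0.43 ± 0.25 (adjusted p = 1.0).

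The test of the difference between the 2 responses gave -1.84 ± 0.36 for Nos2 (95% interval -2.54 to -1.13), a 3.57-fold smaller response in B-depleted mice, which ranked 12 of 19061 by p. It missed the threshold (adjusted p = 0.0687, edgeR). In that test edgeR called 5 genes (0.0262%) and 0 of the 6 members. Nos2 was the 1 member with an unadjusted p under 0.05, and DESeq2 called it (adjusted p = 0.000857) among 1181 genes. Nos2 was also called without WT combination 1 (0.0472), WT combination 3 (0.0204) or B-depleted combination 5 (0.00123), and in 6 of 28 alternatives in all.

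**Figure D3:**
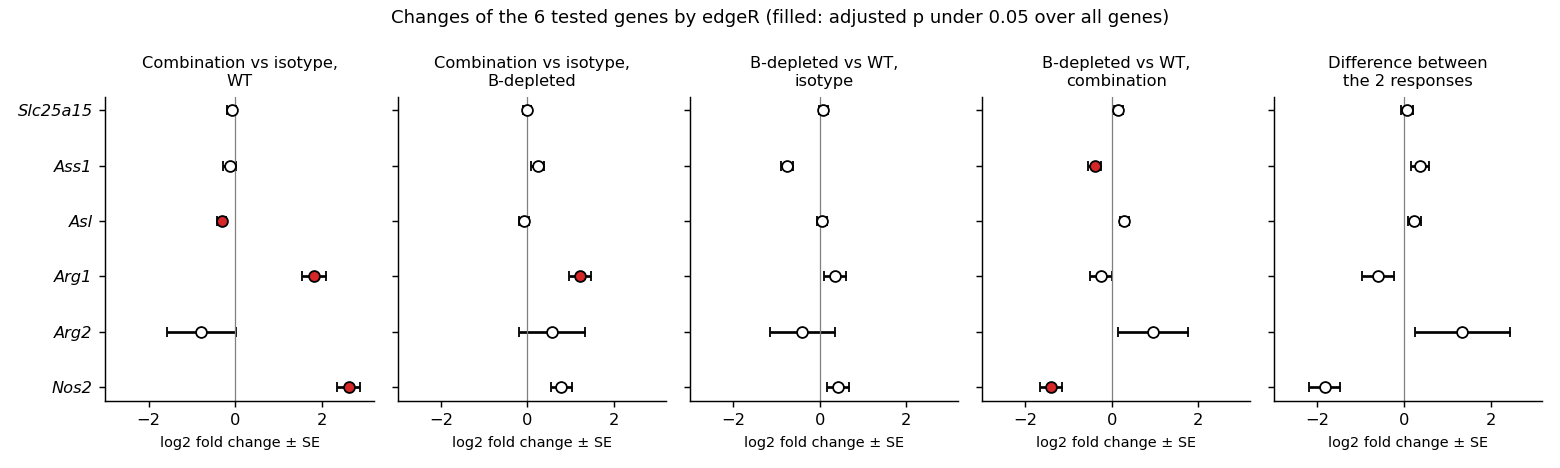
log2 fold change with its SE (horizontal axis) of the 6 tested genes in the 4 group comparisons and for the difference between the 2 responses (B-depleted minus WT); filled points passed an adjusted p under 0.05. Nos2 lies at 2.62 in WT mice and 0.78 in B-depleted mice, Arg1 at 1.82 and 1.22, and Ass1 is below 0 in both comparisons of B-depleted with WT mice.

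In WT mice all 8 macrophage markers rose under the combination (median log2 change 1.19), as did Nos2 and Arg1. Other marker lists rose too: fibroblast 4 of 5 (median 2.16), B cell 6 of 6 (2.07) and T cell 6 of 6 (1.94). So did all 4 Y-linked genes (1.51), 2 of 4 endothelium markers and 1 of 4 of skeletal muscle. Hepatocyte (7 of 8) and hepatoma (1 of 3) markers fell, 1 of 7 neutrophil markers rose and 1 fell, and 0 of 2 adipocyte markers were called. In B-depleted mice none of the 8 macrophage markers was called in that comparison (median log2 change 0.68). Between B-depleted and WT mice under isotype the median of the macrophage markers was -0.20, while Nos2 and Arg1 stood at 0.43 and 0.35, none called. The summed level of 8 macrophage markers, all read in every library, was 697 to 1418 CPM in WT isotype, 1542 to 3099 in WT combination, 596 to 1193 in B-depleted isotype and 942 to 1976 in B-depleted combination. Per 100 CPM of these markers Nos2 stood at 3.23 to 6.60 CPM in WT isotype and 10.2 to 20.1 in WT combination, ranges that do not overlap. It stood at 5.14 to 13.8 in B-depleted isotype and 5.84 to 11.2 in B-depleted combination, which overlap. Arg1 per 100 CPM of markers overlapped between the WT groups (5.01 to 9.83 and 7.06 to 16.2) and between the B-depleted groups (5.27 to 19.3 and 8.66 to 27.6). The part of macrophage number, or of the other cell types, in either gene's level was not tested.

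Because both enzymes use arginine, their levels were set side by side by length. Nos2 was 0.283 to 0.536 times Arg1 in WT isotype (median 0.376), 0.454 to 0.928 times in WT combination (0.627), 0.327 to 0.493 times in B-depleted isotype (0.410) and 0.185 to 0.345 times in B-depleted combination (0.321). Every WT combination library had a higher ratio than every B-depleted combination library, while the isotype groups overlapped. Over the 21 libraries Nos2 and Arg1 levels ran together (Spearman's rho 0.871 over libraries of 4 groups, a description that shares the group differences).

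**Figure D4:**
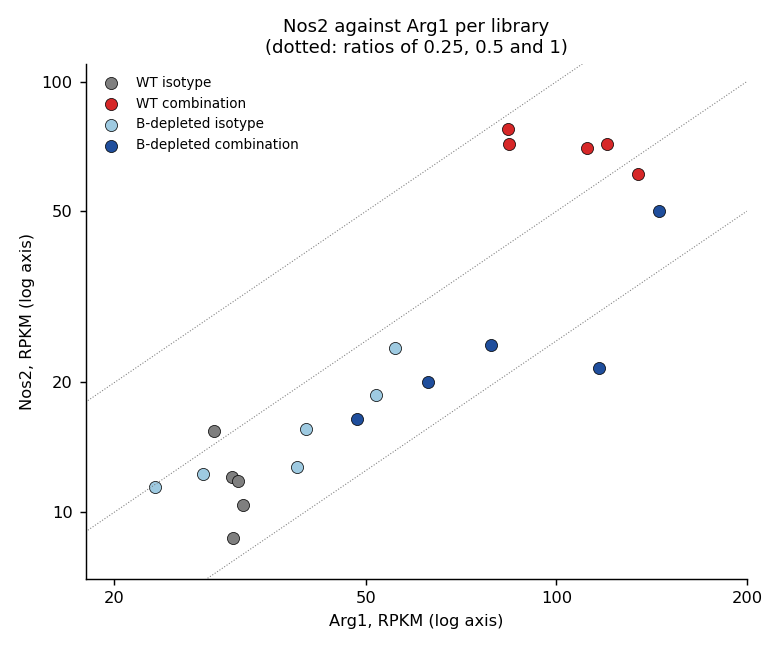
Nos2 against Arg1 (both RPKM, log axes), 1 point per library, with dotted lines at ratios of 0.25, 0.5 and 1. WT combination libraries lie between ratios of 0.454 and 0.928, and B-depleted combination libraries, with Arg1 levels that overlap theirs, between 0.185 and 0.345.

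The order of the genes by RPKM changed with the group. In WT isotype it was Ass1 (33.5), Arg1 (30.7), Nos2 (11.7), Arg2 (6.99), Asl (4.30) and Slc25a15 (2.18). Ass1 overlapped Arg1, Nos2 overlapped Arg2, and Arg2 overlapped Asl. In WT combination Arg1 (107), Nos2 (70.4) and Ass1 (30.2) followed each other without overlap, ahead of Arg2 (4.04), Asl (3.40) and Slc25a15 (2.04). In B-depleted combination Arg1 (90.3), Nos2 (26.5) and Ass1 (23.1) each overlapped the next. In B-depleted isotype the order was Arg1 (39.5), Ass1 (19.9) and Nos2 (15.8), again with overlap. Cps1 was at 0.0781 RPKM or less on average in all groups.

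The genes most like each member were found by Spearman's rho over the 21 libraries among 13354 genes. For Nos2 they were Plek (0.931), Ptafr (0.927) and Ralgds (0.926), and for Arg1 Adam8 (0.926), Cd53 (0.909) and Plek (0.903). Plek and Cd53 are genes of blood cells, and Ptafr is the receptor for platelet-activating factor. For Arg2 they were Chil1 (0.921), Cxcl3 (0.919), a neutrophil-attracting chemokine, and Rdh12 (0.916). For Asl they were Zfp180 (0.878), Rhbdl2 (0.855) and Odf2l (0.851), for Ass1 Mrs2 (0.834), H6pd (0.760) and Ampd3 (0.757), and for Slc25a15 Rapgef4 (0.808), Fam43a (0.796) and Ly6g (0.734). The libraries share depth and tumour make-up, so these values are descriptions.

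Around the 8 genes, 8 lists of related genes held 81 tested genes, of which 21 rose and 26 fell in WT combination against WT isotype. Over all 19061 genes 4766 rose and 4763 fell, which is 50% called, and the lists' counts in WT mice are to be read against that share. Under combination 22 of the 81 were higher and 13 lower in B-depleted than in WT mice, beside 29.1% of all genes called (2963 higher and 2582 lower). The WT comparison and that of B-depleted with WT mice under combination share the WT combination libraries, so opposite signs in them are not independent.

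Among genes that feed the cycle or handle ammonia, 1 of 9 rose and 4 fell in WT mice (median log2 change -0.50, against 0.00 over all genes tested). Nags makes the activator that Cps1 needs and fell by 2.26 ± 0.44, from 1.82 to 0.366 CPM. Glul, which makes glutamine, fell by 1.21 ± 0.20, and Asns, the asparagine synthetase, fell by 1.02 ± 0.23. The aspartate-glutamate carrier Slc25a12 rose by 0.72 ± 0.14, while the liver form of that carrier, Slc25a13, named after its values were seen, fell by 0.78 ± 0.22. None of the 9 was called in B-depleted mice, where Glul changed by -0.46 ± 0.19 (adjusted p = 0.272). Under combination Nags (1.92 ± 0.45), Asns (0.92 ± 0.23) and Slc25a13 (0.72 ± 0.22) were higher in B-depleted than in WT mice and Slc25a12 lower (-0.48 ± 0.14), all with adjusted p of 0.0252 or less.

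Of 20 tested genes in the list of ornithine, proline and creatine metabolism and the polyamine list, 2 rose and 9 fell in WT mice. Of 9 tested enzymes of ornithine, proline and creatine metabolism 4 fell and none rose (median -0.30), among them the proline enzymes Aldh4a1 (-1.06 ± 0.29), Pycr1 (-0.81 ± 0.24) and Pycrl (-0.46 ± 0.18). Of 11 polyamine genes 2 rose and 5 fell (median -0.24). Odc1, the ornithine decarboxylase that opens the polyamine pathway, fell by 0.78 ± 0.14 and Amd1, which makes the aminopropyl donor, fell by 0.60 ± 0.10. Sat1 and Paox, which break polyamines down, rose by 0.83 ± 0.15 and 1.02 ± 0.24. None of these 20 genes was called in B-depleted mice, and Sat1 changed there by 0.36 ± 0.14 (adjusted p = 0.246). Under combination, Odc1 (0.56 ± 0.14) and Amd1 (0.47 ± 0.10) were higher and Sat1 lower (-0.41 ± 0.15) in B-depleted than in WT mice, with 4 of 11 polyamine genes higher and 1 lower in all, beside 29.1% of all genes called.

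Of 9 arginine and amino acid transporters, 2 rose and 3 fell in WT mice (median -0.15). Slc38a9, the lysosomal arginine sensor, rose by 0.64 ± 0.14. Slc7a6 (-0.54 ± 0.10), Slc38a2 (-0.52 ± 0.12) and Slc7a5 (-0.91 ± 0.25) fell. Slc7a2, the cationic amino acid transporter known for feeding arginine to macrophages, was the other that rose, by 0.36 ± 0.10 (adjusted p = 0.00665), and is named there after its values were seen. In B-depleted mice its change was 0.40 ± 0.10 (adjusted p = 0.0707). The 2 responses of Slc7a2 differed by 0.04 ± 0.14 (adjusted p = 0.863).

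Genes for nitric oxide synthesis other than Nos2 were mixed, with 3 of 11 higher and 2 lower in WT mice (median 0.00). Pts (0.78 ± 0.16) and Qdpr (0.41 ± 0.13), which make and recycle the cofactor tetrahydrobiopterin, rose, and Spr, of the same pathway, fell by 0.52 ± 0.15. Prmt1, which methylates arginine in proteins, fell by 0.70 ± 0.12. In B-depleted mice none was called, and Prmt1 changed by -0.02 ± 0.12. The difference between its responses was 0.68 ± 0.17 (adjusted p = 0.0745).

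Of 12 genes of the interferon-gamma and NF-kB side, 8 rose and 1 fell in WT mice (median 0.79). Ifng itself rose by 2.33 ± 0.32, from 1.92 ± 0.904 to 9.44 ± 1.61 CPM (SD, n = 5 each). Jak1 (0.81 ± 0.13) and the macrophage factor Irf8 (0.77 ± 0.11) rose, and Jak2 fell by 0.59 ± 0.10. In B-depleted mice Ifng was the 1 gene called of all 81, rising by 1.51 ± 0.31 (adjusted p = 0.0373) from 1.71 ± 0.791 (n = 6) to 4.81 ± 0.970 CPM (n = 5). No gene of the 81 was called there with only the 2 groups fitted, or without the 2 B-depleted libraries with at least 3 reads of Ms4a1, while DESeq2 called 5, all higher. T cell markers moved with Ifng: 3 of 6 rose in B-depleted mice, and their sum was 41.8 to 160 CPM in B-depleted isotype and 175 to 238 CPM in B-depleted combination, without overlap. Their part in the Ifng level was not tested. Under combination 1 gene of the list was higher and 4 lower in B-depleted mice, with Irf8 at -0.48 ± 0.11, Ifngr1 at -0.38 ± 0.09, Jak1 at -0.53 ± 0.13 and Jak2 at 0.39 ± 0.10.

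Of 10 tested genes of the interleukin-4 side, 4 rose and none fell in WT mice (median 0.58): Irf4 (1.40 ± 0.33), Chil3 (1.94 ± 0.66), Stat6 (0.18 ± 0.06) and Mrc1 (0.87 ± 0.35), the last also counted among the macrophage markers. None was called in B-depleted mice, where Mrc1 changed by 0.49 ± 0.33. Under combination 4 were lower in B-depleted mice: Ccl22 (-1.33 ± 0.35), Irf4 (-1.26 ± 0.33), Chil3 (-2.16 ± 0.67) and Mrc1 (-0.98 ± 0.35).

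Liver transcription factors and receptors that act on the urea cycle genes had the lowest median of the 8 lists. In WT mice 7 of 10 fell and 1 rose (median -1.47), among them Ppara (-2.14 ± 0.40) and Hnf4a (-1.90 ± 0.36), while Cebpa rose by 1.15 ± 0.17. Under combination 6 were higher and 1 lower in B-depleted than in WT mice, with Hnf4a at 1.44 ± 0.35, Foxa1 at 1.06 ± 0.31 and Foxa2 at 1.04 ± 0.32. None was called in B-depleted mice. Hepatocyte marker sums, 123 to 998 CPM in WT combination and 545 to 1796 in B-depleted combination, moved with this list. Hnf4a is counted in both, and whether this RNA came from hepatoma cells or normal liver cells was not tested.

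Under isotype none of the 81 genes was called by edgeR or DESeq2 between B-depleted and WT mice, nor by edgeR for the difference between the 2 responses, where DESeq2 called 8 higher and 2 lower. Without WT isotype 1 and 2, edgeR called 2 lower under isotype, and 15 higher and 4 lower for the difference. When the summed level of 4 Y-linked genes entered the fit, none of the 81 was called in any comparison. That sum ran from 47.6 to 79.2 CPM in WT isotype and from 135 to 250.5 CPM in WT combination, so covariate and antibody cannot be told apart there. It ran from 46.3 to 119 CPM in B-depleted isotype and from 85.9 to 169 CPM in B-depleted combination, which overlap. What the sum stands for in these tumours was not tested.

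**Figure D5:**
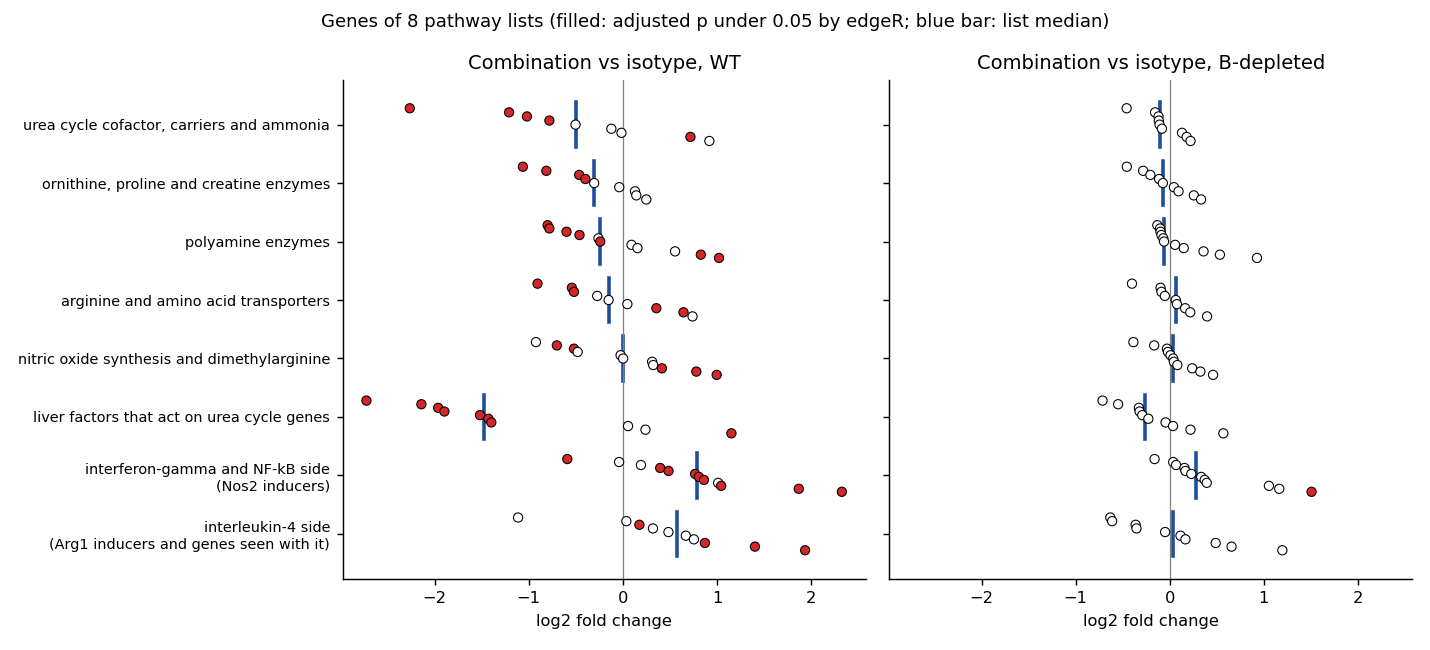
log2 fold change of combination against isotype (horizontal axis, the same in both panels) for the tested genes of 8 lists in WT and in B-depleted mice; filled points passed an adjusted p under 0.05 by edgeR and blue bars are list medians. In WT mice 47 of 81 genes passed, and in B-depleted mice Ifng alone did.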

How the data were processed

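Polyadenylated RNA was sequenced in 21 tumour libraries with the TruSeq Stranded mRNA kit, per the labels' protocols. The deposited table holds read counts per Ensembl gene, as the authors' whole numbers show. The tools cutadapt 2.4 and STAR 2.7.2a and the build GRCm38 are named in the submitters' processing notes; the counting program, strand setting and annotation release were not given in the sources used here. Symbols, positions and exon lengths came from GENCODE M21, which matched 55227 of 55487 identifiers.

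In R 4.3.3, edgeR 4.0.16 filtered genes with filterByExpr by group, scaled by TMM and fitted all 21 libraries in 4 groups by the robust quasi-likelihood method. A standard error is the log2 change divided by the square root of F. The 95% intervals use a normal multiplier of that error, which makes them narrower than the fit's degrees of freedom would. The fit was tested on simulated data. Alternatives were DESeq2 1.42.0, no filter, library totals, only the groups compared, the replicate number as a block, a Y-linked covariate, WT isotype 1 and 2 left out, each library left out, and, added after seeing the data, B-depleted libraries with at least 3 reads of Ms4a1 left out. No sample title sets WT isotype 1 and 2 apart from the rest of their group, so that choice did not come from the titles.

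Some genes of the lists are not reported here. The members and lists were chosen with earlier results of these data known. Named were the 8 members, up to 4 called genes of smallest p per list (otherwise the 2 of highest level), and the 3 genes most like each member (Spearman's rho of log2 CPM, prior count 2, mean of at least 1 CPM).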

Additional observations from a re-analysis of the deposited data

Results flagged for a closer look

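In each group of 5 or 6 libraries, the highest and lowest level of each tested gene was set against its neighbour by Dixon's test, over 24 groups in all. A single library stood apart in 4 of them, and chance alone gives about 1 in 20 for independent and normally spread values. That spread was not checked, and the cases of Arg2 and Nos2 in B-depleted combination 5 share a library, so the rates cannot be compared. In B-depleted combination 5 Arg2 was at 37.1 CPM and Nos2 at 220.9 CPM, each far above the other 4 libraries of the group. In WT combination 5 Arg2 was at 14.0 CPM, the highest of its group. In WT combination 3 Slc25a15 was at 9.31 CPM, the lowest of its group.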

How the results depend on the processing

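Direction and call held in 785 of 864 values of single members under alternatives, 50 lost a call, 16 gained one and 13 changed sign, none of them a called value. In WT mice, combination against isotype gave 9529 genes and 3 members, and 77 genes and 1 member (Nos2) with the Y-linked covariate. In B-depleted mice, 65 genes and 1 member (Arg1) became 388 genes with DESeq2, 35 and 0 members without the filter, 6 and 0 with only the 2 groups, 31 and 0 with the covariate, 40 and 0 without WT isotype 1 and 2, and 3 and 0 without the 2 B-depleted libraries with at least 3 reads of Ms4a1. Between B-depleted and WT mice under isotype, 0 genes became 5 with 1 member (Ass1) by DESeq2, 1 without the filter, 16 with 1 member under the covariate and 25 with 1 member without WT isotype 1 and 2. Under combination, 5545 genes and 2 members became 3343 and 1 without the filter and 4 and 0 with the covariate. For the difference between responses, 5 genes and 0 members became 1181 and 1 (Nos2) with DESeq2, 0 genes with the covariate, 2007 and 1 without WT isotype 1 and 2, and 2 and 1 without the libraries with Ms4a1 reads. The cause was not tested, beyond the fewer libraries or other genes tested. With each library left out in turn, the counts ran from 11 to 176 genes and 0 to 1 members for the B-depleted response, 0 to 2 genes and 0 to 1 members under isotype, 2182 to 7606 genes and 1 to 3 members under combination, and 0 to 1540 genes and 0 to 1 members for the difference. Signs changed for Ass1 in WT mice (-0.25 to 0.0099), for Arg2 (-0.83 to 1.16) and Slc25a15 (-0.081 to 0.023) in B-depleted mice, for Asl under isotype (-0.0082 to 0.14), for Arg2 under combination (-0.44 to 1.60) and for the difference in Arg2 (-0.042 to 1.98). They also changed with the covariate for Asl (4.2e-05) and Arg2 (-0.0081) in B-depleted mice, without the libraries with Ms4a1 reads for Arg2 in B-depleted mice (-0.64) and under combination (-0.25), and without WT isotype 1 and 2 for Slc25a15 under isotype (-0.0078). Library totals in place of TMM changed no count by more than 1.5 times. Replicate numbers did not pair the libraries: correlations of same-numbered deviations ran from -0.384 to 0.551, and at most 2 of 5 libraries correlated best with their own number. With the number as a block, 9583 genes were called in WT mice, 33 in B-depleted mice, 1 under isotype, 6071 under combination and 0 for the difference, with 3, 1, 0, 2 and 0 members. Depth limits Cps1, which had at most 16 reads in a library, and Otc, which was under the floor of 3 counts in all.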
